A study of Mus musculus with 50 samples.

Results

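Cytosolic ribosomal proteins are the protein subunits of the ribosomes that translate nuclear-encoded messages. They were taken here by symbol and by level. A gene qualified if it was protein-coding in GENCODE vM21 and its symbol was Rpl or Rps plus a number, alone or ending in a, x, l, al or l1. Rplp0, Rplp1, Rplp2 and Rpsa were added by name. Of 21897 protein-coding genes among the 55487 genes counted, 83 carried such a symbol. Of these, 80 reached 1 CPM (counts scaled to a common library total) in 5 or more libraries and are the members described below. Just inside that minimum, the fifth-highest library held 24.6 CPM for Rps27l, 42.02 for Rpl22l1 and 57.8 for Rpl36al. Just outside it, the highest library held 0.686 CPM for Rpl3l, 0.214 for Rpl39l and 0 for Rpl10l. All 80 members passed the filter on low counts and were among the 16330 protein-coding genes tested. They comprise 46 large-subunit proteins, 31 small-subunit proteins and the 3 proteins of the P stalk. Their genes lie on 19 chromosomes, 14 of them on chromosome 7 and 4 on the X (Rpl10, Rpl36a, Rpl39 and Rps4x).

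Each ribosome holds a single copy of nearly every ribosomal protein, apart from the acidic stalk proteins, which are present in several copies. The large subunit carries the peptidyl transferase centre, the exit tunnel and the stalk that recruits translation GTPases, and the small subunit binds the message and decodes it. Messages for these proteins begin with a C followed by a run of pyrimidines, the terminal oligopyrimidine (TOP) tract, through which mTOR and LARP1 control their translation. A few ribosomal proteins have paralogs encoded elsewhere in the genome, several of them known from testis or muscle. In the developing cortex, dividing progenitors give way to differentiating neurons and then to maturing glia, and ribosome production is high in dividing cells.

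RNA from frontal cortex of 50 mice was captured by poly-A and sequenced as paired ends in a single batch, in a study of loss of function of the chromatin regulator Setd1a. By the methods, embryos gave frontal brain regions and mice after birth gave frontal cortex. There were 5 ages, the embryonic days 14 and 18 (E14, E18) and the postnatal days 7, 35 and 70 (P7, P35, P70), each with 5 wild-type (WT) and 5 heterozygous (Setd1a+/-) mice. Heterozygotes carried 1 copy of the tm1d loss-of-function allele. The labels give the strain C57BL/6NTac for all animals and no sex, whereas the methods describe a mixed C57BL/6NTac and C57BL/6J background, male animals, and slightly later embryonic ages than the labels. Libraries held 35507165 to 43907318 fragments assigned to genes.

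A pair of libraries went against the male sex given in the methods. E14 WT replicate 5 held 60159 Xist counts and E18 WT replicate 2 held 55644, with at most 11 counts over 4 Y-linked genes. In the other 48 libraries Xist reached at most 27 counts and the Y-linked genes at least 4711. P7 WT replicate 2 stood apart in another way: the SD of its log2 deviations from the P7 mean over all tested genes was 0.607, against 0.236 to 0.256 in the other P7 WT libraries. Its oligodendrocyte markers summed to 1601 CPM and its choroid plexus markers to 651, against 206.3 to 263 and 4.85 to 7.64 in the other 4. E14 Setd1a+/- replicate 2 had an SD of 0.553 from the E14 mean, against 0.304 to 0.341 in the other E14 Setd1a+/- libraries. Its meningeal markers summed to 1558 CPM and its endothelial markers to 569, against 25.03 to 517 and 110.3 to 217 in those libraries. General neuronal markers were present in every library, with all 10 above 0 in all 5 libraries of each group. Summed striatal markers ranged from 269 to 987 CPM in P70 WT and from 429 to 1123 in P70 Setd1a+/-.

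Setd1a itself (ENSMUSG00000042308) was measured before the members, in CPM after TMM scaling, the scale of all CPM values from here on unless stated. At E14 it was 129, 129.8, 136, 119 and 119 in WT and 150.2, 136, 128, 139.7 and 130.1 in Setd1a+/-. At E18 it was 93.4, 95.6, 94.6, 85.4 and 100.02 in WT and 104, 117, 96.9, 104 and 113 in Setd1a+/-. The Setd1a level at P7 was 72.5, 76.2, 70.2, 70.7 and 71.3 in WT and 81.9, 78.3, 76.4, 83.5 and 83.7 in Setd1a+/-. Setd1a was thus not lower in Setd1a+/- at these ages, and at P7 all 5 Setd1a+/- mice lay above all 5 WT mice. At P35 Setd1a was 91.7, 82.4, 81.7, 84.6 and 85.2 in WT and 91.9, 88.2, 88.3, 89.4 and 91.6 in Setd1a+/-. At P70 Setd1a was 84.4, 88.7, 84.8, 81.6 and 92.0 in WT and 81.9, 86.0, 81.5, 76.6 and 97.8 in Setd1a+/-, with overlapping groups. Over all ages the log2 fold change was 0.10 (edgeR, SE 0.0251, adjusted p 0.00679), with 21 of 25 Setd1a+/- mice above the WT mean of their age. Counts were summed over the whole gene, 51.8% of whose exonic bases overlap Gm49388, so they do not single out the deleted exon and do not check the genotype labels.

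Ribosomal protein messages were among the abundant messages of the cortex at every age. Per length, in RPKM, the median member stood at 169 in E14 WT, 151 in E18 WT, 98.0 in P7 WT, 61.3 in P35 WT and 68.7 in P70 WT. Over all tested genes the group medians ran from 5.08 to 5.23 in WT. The members differed widely among themselves. Rplp1, an acidic protein of the stalk, had the highest mean RPKM over the 50 libraries, 797. It was followed by Rps15 of the small-subunit head (378), Rplp0, the scaffold of the stalk (313), Rps2 at the message entry channel (289) and Rpl36 (281). The lowest mean RPKM values were those of 3 paralogs, Rpl7l1 (14.3), Rps27l (16.5) and Rpl22l1 (19.2), then Rps15a (25.7) and Rpl35a (29.9). These ranks pool the ages: in both genotypes the lowest member was Rpl22l1 at E14, Rpl7l1 at E18 and P7, and Rps27l at P35 and P70. The ubiquitin fusion gene Rps27a averaged 87.7 RPKM and Rpsa, a small-subunit protein also known as the laminin receptor precursor, averaged 179. Lengths are those of all annotated exons, from 383 to 6270 bases with a median of 1805.5 against 4261 over all tested genes, so a member with long rarely used exons has a low RPKM.

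Together the 80 members took a share of the protein-coding counts that became smaller after birth. In percent, the share was 2.63, 2.22, 2.06, 2.80 and 3.14 in the 5 E14 WT mice and 2.48, 2.42, 2.83, 2.53 and 3.10 in the 5 E14 Setd1a+/- mice. At E18 it was 2.37, 2.59, 2.48, 2.45 and 2.47 in WT and 2.54, 2.65, 2.43, 2.47 and 2.54 in Setd1a+/-. Both embryonic ages overlapped, and the E14 mice spread most widely. By P7 the share was 1.53, 1.67, 1.56, 1.56 and 1.54 in WT and 1.63, 1.62, 1.56, 1.54 and 1.61 in Setd1a+/-. P35 mice had shares of 0.947, 0.985, 0.953, 1.01 and 0.997 in WT and 1.01, 0.989, 1.03, 1.04 and 1.02 in Setd1a+/-. P70 mice had shares of 1.02, 1.05, 0.967, 1.18 and 1.07 in WT and 1.002, 1.04, 1.05, 1.07 and 1.07 in Setd1a+/-. Every P7 mouse lay below every embryonic mouse, and every P35 and P70 mouse lay below every P7 mouse. Group means were 2.57% ± 0.438 (SD, n = 5) in E14 WT and 1.05% ± 0.0783 in P70 WT. No gene dominated the sum. In E14 WT, Rplp0 held 3.69% of the member counts, Rpsa 3.28% and Rps2 2.86%. In P7 WT, Rps2 (4.19%) and Rpsa (4.00%) led, and in P70 WT Rplp1 (3.10%) and Rpl4 of the exit tunnel (2.98%). The 10 largest contributors together held 24.8% to 27.2% of member counts across the WT ages.

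**Figure D1:**
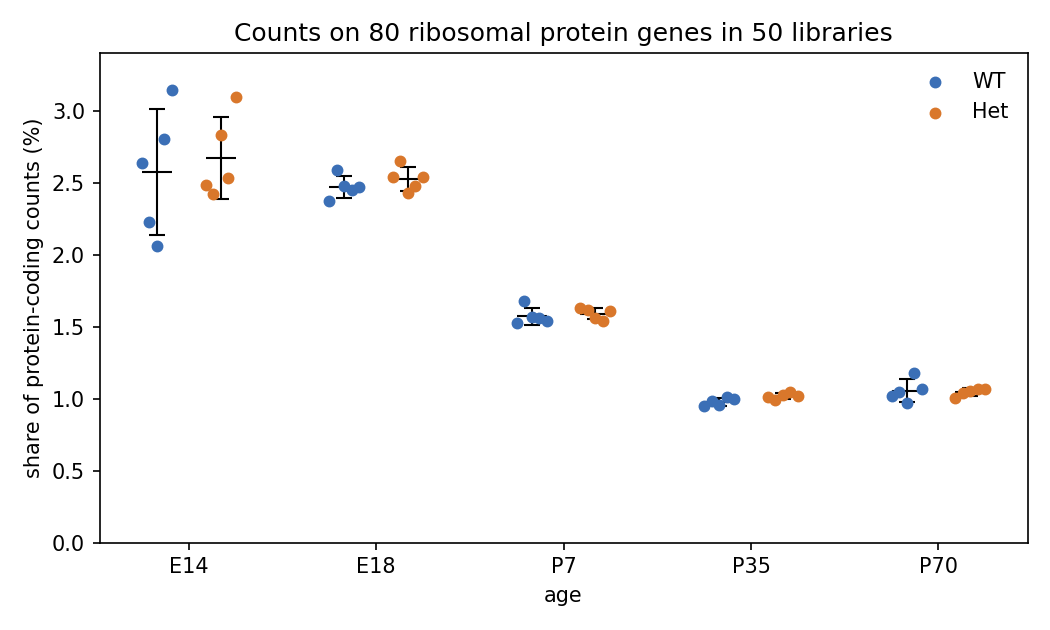
Share of protein-coding counts on the 80 members (percent, vertical axis) by age and genotype; points are libraries, bars mean ± SD. Embryonic libraries lie between 2.06 and 3.14%, P7 libraries between 1.53 and 1.67%, and P35 and P70 libraries between 0.947 and 1.18%.

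Nearly every ribosomal protein gene fell between E14 and P70 in WT. Comparisons of ages ask how expression developed within a genotype, and a gene counts as called at an edgeR adjusted p under 0.05 over the 16330 tested genes. From E14 to P70 in WT, 78 of 80 members were lower (42.9% of all tested genes were) and 0 were higher (42.8% of all). All 78 members with an unadjusted p under 0.05 (86.1% of all genes) were among these, and DESeq2 and limma-voom also called 0 members higher. The median log2 fold change was -1.17 over members and 0.00 over all tested genes. Setd1a+/- mice, a separate set of animals, gave 78 lower members as well (43% of all genes) with a median of -1.21. Without a scaling of the libraries to each other beyond their size, the median over all tested genes shifted to -0.11 and that over members to -1.29. In 73 of 80 members, all 5 E14 WT libraries lay above all 5 P70 WT libraries in RPKM, against 36.8% of all tested genes. In bulk tissue, fewer cells of a type and less RNA per cell cannot be told apart, here or in the other comparisons of ages. Between embryonic and postnatal ages the described dissection differs as well, and it cannot be told apart from age.

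The fall was spread over the roles. Among large-subunit members 45 of 46 were lower at P70 in WT (median log2 fold change -1.05), among small-subunit members 30 of 31 (-1.28), and all 3 stalk proteins (-1.27). Taken in order of exonic length, successive sets of 20 members had medians of -0.96, -1.26, -1.27 and -1.08, and in order of mean RPKM -1.19, -1.12, -1.28 and -1.11. The 2 members not called were the small-subunit gene Rps21 and the paralog Rpl22l1. Rps21 was chosen after its values were seen. Its CPM was 152, 136, 108, 188 and 208 in E14 WT and 145, 143, 119, 136 and 147 in P70 WT, and the groups overlapped (log2 fold change -0.20, edgeR adjusted p 0.118). Rpl22l1, a paralog of Rpl22, had 38.3, 33.7, 30.3, 49.1 and 54.7 CPM in E14 WT and 37.8, 38.9, 35.2, 45.8 and 41.0 in P70 WT. These groups overlapped as well (-0.05, edgeR adjusted p 0.624).

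Rplp0 (ENSMUSG00000067274, chr5:115559467-115563727 on GRCm38), on which the acidic stalk proteins assemble, fell furthest. It had 933, 878, 803, 962 and 1041 CPM in E14 WT, 769, 890.2, 807, 786 and 824 in E18 WT and 442, 471, 457, 456 and 448 in P7 WT. In P35 WT it had 159.4, 161.8, 169, 167 and 166 CPM and in P70 WT 157.9, 155, 159.3, 185 and 161. Every P7 mouse lay below every E18 mouse, every P35 mouse below every P7 mouse, and P35 and P70 overlapped. The log2 fold change from E14 to P70 was -2.50 in WT (edgeR, SE 0.0538, adjusted p 2.63e-36, 5 of 5 P70 mice below the lowest E14 mouse) and -2.53 in Setd1a+/-. Its partners in the stalk moved less. Rplp2 had 284, 226, 212, 269 and 291 CPM in E14 WT and 105, 111, 99.0, 118 and 99.8 in P70 WT, without overlap (-1.27, edgeR adjusted p 2.12e-22). Rplp1 had 418, 371, 325, 426 and 478 CPM in E14 WT, 462, 482, 466, 463 and 462 in E18 WT and 441, 366, 471, 455 and 457 in P7 WT. In P35 WT Rplp1 had 293, 311, 292, 311 and 305 CPM and in P70 WT 329.6, 344, 323, 379.8 and 344. E14 and P70 mice overlapped for Rplp1, with 1 of 5 P70 mice below the lowest E14 mouse. Rplp1 from E14 to P70 in wild-type had a log2 fold change of -0.23 (edgeR, SE 0.0665, adjusted p 0.00166), and with a minimum of 10 CPM in 5 libraries the call ended (-0.14, adjusted p 0.0569).

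Next to Rplp0 the largest falls were those of Rps27l, Rps26 and Rpl7. Rps27l (ENSMUSG00000036781), a paralog of the zinc-binding protein Rps27, had 27.6, 20.6, 20.6, 28.7 and 36.4 CPM in E14 WT and 6.55, 6.58, 7.06, 9.17 and 6.87 in P70 WT. The log2 fold change of Rps27l was -1.88 (edgeR, SE 0.127, adjusted p 4.25e-18), with every P70 mouse below every E14 mouse. Rps26 (ENSMUSG00000025362), at the message exit channel, had 297, 259, 229.7, 308 and 342 CPM in E14 WT and 79.4, 75.6, 72.1, 93.2 and 77.3 in P70 WT. For Rps26 too every P70 mouse lay below every E14 mouse (-1.85, edgeR SE 0.0735, adjusted p 1.43e-26). Rpl7 (ENSMUSG00000043716) of the large subunit had 513, 466, 399.5, 534 and 556 CPM in E14 WT and 135, 137, 131.6, 156 and 142 in P70 WT, also without overlap (-1.81, edgeR SE 0.0661, adjusted p 5.58e-28). Rpsa had 841, 771, 712, 858 and 925 CPM in E14 WT and 288, 283, 275, 318 and 295 in P70 WT, and the ubiquitin fusion Rps27a had 264, 221, 193.1, 285 and 321 and 115, 109, 107, 129 and 119. Neither gene's groups overlapped, with log2 fold changes of -1.49 for Rpsa and -1.15 for Rps27a (edgeR adjusted p 2.85e-29 and 3.84e-17).

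Step by step, most lower calls came from E18 to P7 and from P7 to P35. From E18 to P7 in WT, 75 of 80 members were lower (33.4% of all tested genes) and 0 higher (33.9% of all), with a median log2 fold change of -0.64. The 75 lower members were also the count at an unadjusted p under 0.05 (69.6% of all genes), and DESeq2 and limma-voom called 0 higher. Rps2, Rpl36al, Rplp1, Rpl22l1 and Rpl41, the last chosen after its values were seen, were not called. From P7 to P35, 74 members were lower (34.3% of all genes) and 0 higher (32.6% of all), with a median of -0.55. An unadjusted p under 0.05 was reached by 74 members (69.3% of all genes), and DESeq2 and limma-voom again called 0 higher. Rpl7l1, Rpl22l1, Rpl35a and Rps15 were among the 6 not called. In Setd1a+/-, 75 members were lower from E18 to P7 (35% of all genes, median -0.68) and 74 from P7 to P35 (33.3% of all, median -0.54). Leaving out P7 WT replicate 2 gave 75 and 74 lower members in WT. Of the 80 WT members, 51 fell more from E18 to P7 in the fitted values and 29 more from P7 to P35.

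Rps2 had the largest difference between these steps, its log2 fold change from P7 to P35 less that from E18 to P7 being -1.08 in WT. It had 642, 696, 670.3, 665 and 659 CPM in E18 WT, 639, 553, 699, 667 and 671 in P7 WT and 289, 315, 283, 288 and 299.98 in P35 WT. P7 mice overlapped E18 mice, and every P35 mouse lay below every P7 mouse. The log2 fold change of Rps2 was -0.05 from E18 to P7 (edgeR adjusted p 0.489) and -1.13 from P7 to P35 (SE 0.0571, adjusted p 9.54e-22). The small-subunit protein Rpsa had 741, 824, 771, 747 and 797 CPM in E18 WT, 600.4, 570.0, 642, 636 and 635 in P7 WT and 263, 267, 249.9, 276 and 264 in P35 WT. Its groups did not overlap from age to age, with log2 fold changes of -0.33 and -1.22 (edgeR adjusted p 1.11e-07 and 3.99e-25). Rps21, chosen after its values were seen, was at the other end. It had 127, 167, 136, 139.8 and 156 CPM in E18 WT, 106, 102.5, 94.5, 116 and 108 in P7 WT and 127, 124, 127, 132.8 and 113 in P35 WT. Each P7 value of Rps21 lay below each E18 value (-0.46, edgeR adjusted p 0.00103), and P35 and P7 overlapped (0.24, edgeR adjusted p 0.0804).

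**Figure D2:**
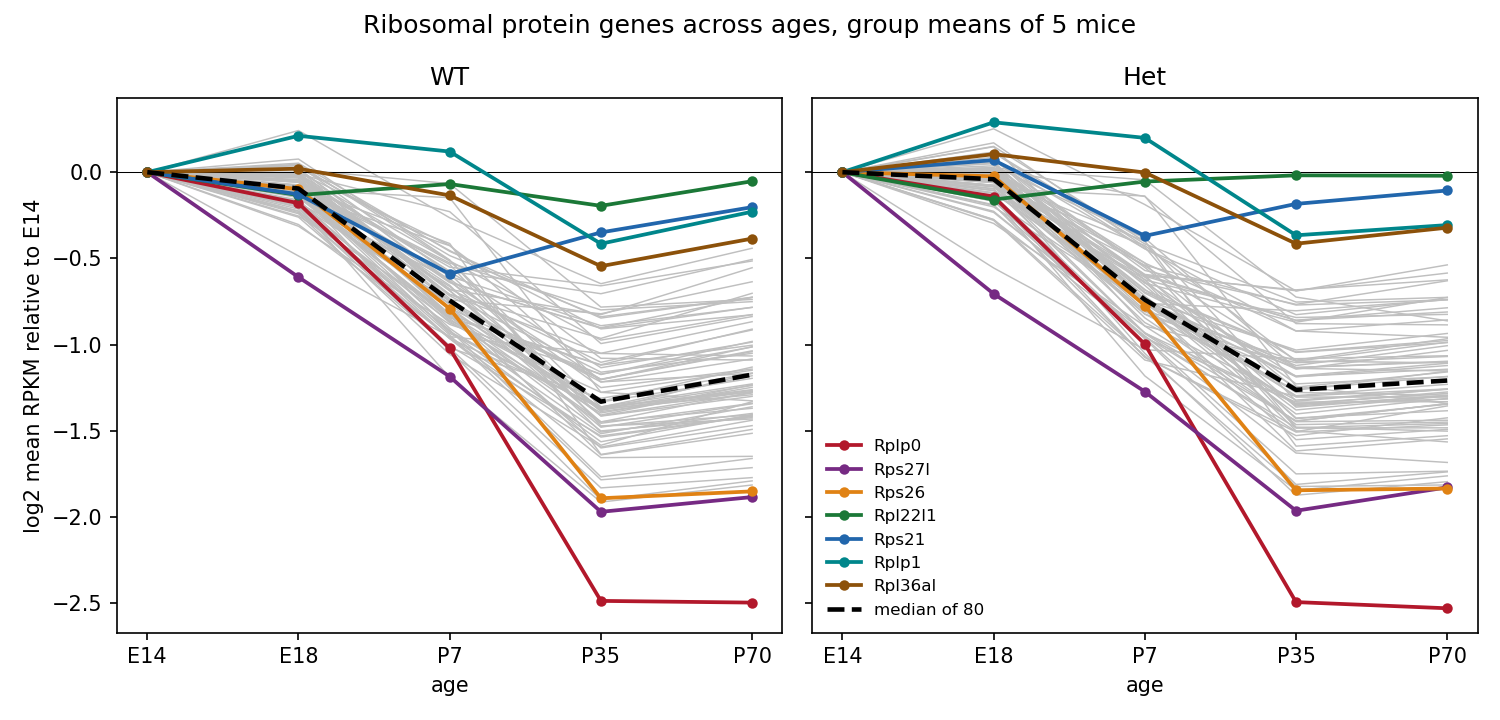
Mean RPKM of each member in WT and Setd1a+/- mice, on a log2 scale relative to E14 (vertical axis) against age; grey lines are the 80 members, colored lines 7 named members and the dashed line the median. Rplp0 ends lowest, and Rpl22l1 and Rps21 end nearest to their E14 level.

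The promoters of the member that fell most, of a member not called and of paralogs with their parents are shown for the letters they hold. RefSeq start sites on GRCm38.p6 gave 71 promoters for 60 members, and 20 members had none. Each printed window runs from 170 bases before to 30 bases after a RefSeq start, which lies within 72 bases of the start annotated by GENCODE. The windows are those of Rplp0 (chr5:115559297-115559496, plus strand), the gene that fell most, Rps21 (chr2:180257209-180257408, plus strand), a gene not called and chosen after its values were seen, and 3 parents with their paralogs. The pairs are Rpl22 (chr4:152325556-152325755, plus strand) with Rpl22l1 (chr3:28805338-28805537, plus strand), Rpl36a (chrX:134585484-134585683, plus strand) with Rpl36al (chr12:69184038-69184237, minus strand), and Rps27 (chr3:90213619-90213818, minus strand) with Rps27l (chr9:66945916-66946115, plus strand). Capitals mark CTTCCG or its reverse complement CGGAAG, the core recognised by GA-binding protein.
Rplp0: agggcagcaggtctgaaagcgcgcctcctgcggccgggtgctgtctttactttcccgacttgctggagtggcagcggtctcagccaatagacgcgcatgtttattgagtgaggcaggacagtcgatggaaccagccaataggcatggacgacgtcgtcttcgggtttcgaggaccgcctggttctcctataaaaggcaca
Rps21: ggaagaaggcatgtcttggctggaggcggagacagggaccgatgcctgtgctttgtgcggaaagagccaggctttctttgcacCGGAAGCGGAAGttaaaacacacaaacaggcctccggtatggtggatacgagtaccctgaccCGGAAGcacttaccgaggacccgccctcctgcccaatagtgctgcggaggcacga
Rpl22: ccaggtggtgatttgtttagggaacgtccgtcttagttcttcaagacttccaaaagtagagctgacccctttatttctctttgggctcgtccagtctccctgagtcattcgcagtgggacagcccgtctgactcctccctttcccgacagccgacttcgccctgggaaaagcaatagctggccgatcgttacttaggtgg
Rpl22l1: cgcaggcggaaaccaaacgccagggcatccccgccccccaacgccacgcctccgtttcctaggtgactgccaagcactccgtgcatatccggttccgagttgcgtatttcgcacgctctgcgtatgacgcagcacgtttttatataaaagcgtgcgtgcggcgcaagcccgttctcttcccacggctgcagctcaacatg
Rpl36a: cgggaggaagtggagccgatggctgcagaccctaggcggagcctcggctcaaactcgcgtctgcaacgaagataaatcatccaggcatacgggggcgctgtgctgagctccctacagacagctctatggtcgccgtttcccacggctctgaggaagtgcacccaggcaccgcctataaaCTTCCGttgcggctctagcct
Rpl36al: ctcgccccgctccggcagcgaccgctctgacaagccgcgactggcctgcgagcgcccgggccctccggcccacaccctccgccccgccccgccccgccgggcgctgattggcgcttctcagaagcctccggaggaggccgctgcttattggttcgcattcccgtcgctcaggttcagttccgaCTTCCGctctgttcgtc
Rps27: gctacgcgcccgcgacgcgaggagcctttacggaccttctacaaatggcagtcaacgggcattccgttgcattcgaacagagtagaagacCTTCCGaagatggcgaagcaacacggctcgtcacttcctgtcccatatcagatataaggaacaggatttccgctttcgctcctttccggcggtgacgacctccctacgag
Rps27l: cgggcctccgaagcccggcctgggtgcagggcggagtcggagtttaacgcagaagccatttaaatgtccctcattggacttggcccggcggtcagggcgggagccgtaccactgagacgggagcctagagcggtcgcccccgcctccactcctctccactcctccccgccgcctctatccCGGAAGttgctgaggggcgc
The core was found 3 times in the Rps21 window, once in those of Rpl36a, Rpl36al, Rps27 and Rps27l, and not in those of Rplp0, Rpl22 and Rpl22l1. Searched on both strands from 250 bases before to 50 bases after the start, CTTCCG was present in 44 of 71 member promoters (61.97%), belonging to 41 of 60 members, and in 16.85% of all 32851 promoters. The pyrimidine motif CTTTCC, or GGAAAG on the other strand, was present in 36 of 71 (50.7%), belonging to 32 members, and in 26.56% of all. Neither motif's letters contain the other's. A match describes the letters of a window and is not a binding site.

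Between E14 and E18 the members moved little, more often downward than upward. In WT, 22 were lower at E18 (34.1% of all tested genes) and 2 higher (31.8% of all), with a median log2 fold change of -0.09. Fitted values in WT lay below 0 in 67 and above 0 in 13 of the 80 members (above 0 in 49% of all genes). In Setd1a+/-, 15 were lower (32.5% of all) and 4 higher (32.0% of all), with a median of -0.04. There 47 members lay below 0 and 33 above (49.4% of all genes above). The higher members in WT were the stalk protein Rplp1 and Rpl38, a large-subunit protein known for its part in translating Hox messages, chosen after its values were seen. Rplp1 was 0.21 higher on the log2 scale (edgeR, SE 0.0665, adjusted p 0.00516), although 1 of 5 E18 WT mice lay above the highest E14 WT mouse. Rpl38 had 123, 95.6, 88.2, 120.2 and 129 CPM in E14 WT and 126, 129, 131.97, 134 and 138 in E18 WT, with 3 of 5 E18 mice above all E14 mice (0.24, edgeR SE 0.0857, adjusted p 0.0123). In Setd1a+/- all 5 E18 values of Rplp1, 489.6, 523, 495, 493 and 492 CPM, lay above its highest E14 value of the same genotype (375, 368, 441, 383 and 473). The 2 paralogs Rps27l and Rpl7l1 had the largest decreases in WT, -0.61 and -0.49 (edgeR adjusted p 2.77e-05 and 7.44e-09). Both counts turned on E14 libraries. The number of lower members was 42 without E14 WT replicate 3 and 14 without E14 WT replicate 5, a library with Xist counts. It was 18 without both libraries with Xist counts (33.6% of all), and 13 with library size as the sole scaling (30.2% of all tested genes). With single libraries left out, 32.4 to 34.7% of all tested genes were lower and 29.8 to 32.3% higher. The number of higher members was 1 without E14 WT replicate 2 and 1 without E14 WT replicate 3.

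The members moved together between mice of the same age, most of all at E14. Averaged over members, the log2 deviation from the mean of the age was 0.08, -0.15, -0.33, 0.12 and 0.23 in E14 WT replicates 1 to 5 and -0.05, -0.17, 0.14, -0.09 and 0.22 in E14 Setd1a+/- replicates 1 to 5. E14 WT replicate 5 and E14 Setd1a+/- replicate 5 had all 80 members above the mean of the age, and E14 WT replicate 3 had 0. From E14 to P70 the SD of these averages was 0.228, 0.0765, 0.0229, 0.0343 and 0.0840 in WT and 0.162, 0.0814, 0.0374, 0.0285 and 0.0321 in Setd1a+/-. Among E14 WT mice, replicate 5 also had the highest sums of progenitor (3235 CPM) and erythroid markers (1349) and the lowest of neuronal markers (2803). It was highest as well for choroid plexus (425), meningeal (383) and endothelial markers (162.6). Replicate 3, with the lowest member average, had 2536, 348 and 3363 CPM of the former 3 and 382, 189 and 129 of the latter 3, each within the range of the others. Whether these go together was not tested. Other short messages shifted with the members. A set of 294 tested genes lay under 1200 bases with a mean log2 CPM of at least 3. Their median deviations were 0.09, -0.04, -0.18, 0.11 and 0.13 in E14 WT. Those of 4149 genes over 6000 bases at that level were 0.02, 0.08, 0.08, -0.005 and -0.08. In the same mice 75 mitochondrial ribosomal protein genes had mean deviations of 0.06, -0.08, -0.17, 0.14 and 0.16. P70 WT replicate 4 was the library farthest from its age after birth, with a member average of 0.15, 79 of 80 members above the mean and a short-gene median of 0.12. Its median over genes longer than 6000 bases was -0.08. The part of message length in these shifts was not tested.

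From P35 to P70 in WT, edgeR called 2 members higher (0.533% of all tested genes), among them Rpl37 of the large subunit, chosen after its values were seen. Rpl37 had 97.6, 98.7, 90.2, 103 and 101.9 CPM in P35 WT and 115, 118, 114, 128 and 118 in P70 WT. All 5 P70 mice lay above all 5 P35 mice for Rpl37, with a log2 fold change of 0.27 (edgeR, SE 0.0641, adjusted p 0.0251). By edgeR 0 members were lower (0.527% of all genes), and DESeq2 and limma-voom also called 0 lower. Over the 80 members, 76 had a fitted value above 0, the median was 0.13 against 0.00 over all genes, and 36 reached an unadjusted p under 0.05 (45% of members, 11.3% of all genes). Members moved together between mice, so these are not separate observations. P70 WT replicate 4 had a member average of 0.15 from the mean of its age, against -0.072 to -0.0045 in the other P70 WT mice. In Setd1a+/-, 0 members were called higher by edgeR (1.51% of all genes), 3 reached an unadjusted p under 0.05 (3.75% of members, 16.2% of all genes) and the median was 0.06. Calls of the other tools on the steps in Setd1a+/- were not summarised. The difference between genotypes over this step was called for 0 members and 0 of all tested genes by edgeR, with 1 member at an unadjusted p under 0.05, Rps29 (1.25% of members, 1.43% of all genes). The fitted difference was above 0 in 5 and below 0 in 75 of the 80 members, with a median of -0.07, and above 0 in 47.7% of all tested genes. The WT count rested on few libraries: it was 0 without P35 WT replicate 1, P35 WT replicate 3, P70 WT replicate 2 or P70 WT replicate 4, and 1 without P35 WT replicate 5 or P70 WT replicate 3. It was 3 without E14 WT replicate 3. Over all tested genes 0.122 to 0.925% were higher with single libraries left out. The count was 4 by DESeq2 (0.839% of all), 2 by limma-voom (0.533%), 1 with library size alone as scaling (0.423%) and 1 with RNA integrity as a covariate (0.282%).

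Paralogs departed from their parents with age, as described here by the paralog's RPKM in percent of the parent's RPKM in the same library, with no test of the ratio. Rpl22l1 gained on Rpl22, an RNA-binding protein of the large subunit. Rpl22 had 203.5, 203.7, 188, 209.9 and 220.3 CPM in E14 WT and 77.2, 72.2, 69.99, 82.5 and 78.2 in P70 WT. Every P70 value of Rpl22 lay below every E14 value (-1.43, edgeR SE 0.04996, adjusted p 1.16e-28), while those of Rpl22l1 overlapped. Per length, Rpl22l1 reached 27.6, 24.2, 23.6, 34.2 and 36.4% of Rpl22 in E14 WT, 37.5, 41.9, 41.4, 41.1 and 37.9% in P7 WT and 71.6, 78.9, 73.7, 81.2 and 76.8% in P70 WT. P7 mice lay above all E14 mice, and P70 mice above all P7 mice. In Setd1a+/- the same ratio ranged from 21.6 to 30.3% at E14 and from 68.5 to 85.3% at P70.

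Rpl36al and its X-linked parent Rpl36a encode nearly the same protein. Rpl36a had 125, 103, 86.2, 129.9 and 146 CPM in E14 WT and 49.2, 51.0, 51.9, 59.9 and 51.0 in P70 WT, without overlap (-1.17, edgeR adjusted p 1.58e-16). Rpl36al had 55.5, 45.7, 40.8, 57.7 and 65.0 CPM in E14 WT and 40.9, 41.97, 39.9, 40.6 and 39.3 in P70 WT, where 3 of 5 mice lay below the lowest E14 mouse (-0.39, edgeR adjusted p 1.72e-05). As a percentage of Rpl36a per length, Rpl36al was 54.3, 54.1, 58.0, 54.3 and 54.6 in E14 WT, 75.2, 71.2, 79.9, 74.5 and 75.5 in P7 WT and 101.8, 101, 94.0, 82.8 and 94.2 in P70 WT. Every P7 mouse lay above every E14 mouse and every P70 mouse above every P7 mouse. Rps27 and Rps27l went the opposite way. Rps27 had 157.7, 113, 92.5, 153 and 162.7 CPM in E14 WT and 69.9, 76.5, 66.7, 79.0 and 69.2 in P70 WT, without overlap (-0.91, edgeR adjusted p 1.60e-11). Rps27l stood at 22.4, 23.3, 28.4, 23.9 and 28.6% of Rps27 per length in E14 WT and 11.98, 10.998, 13.5, 14.8 and 12.7% in P70 WT, again without overlap.

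Rpl7l1, whose yeast relative acts in making the large subunit, fell less than Rpl7. It had 75.4, 73.1, 74.0, 86.6 and 89.0 CPM in E14 WT and 34.8, 42.1, 41.0, 38.9 and 33.4 in P70 WT (-1.07, edgeR adjusted p 6.49e-20), without overlap. Rpl7l1 averaged 12.5 ± 1.09% (SD, n = 5) of Rpl7 per length in E14 WT and 20.9 ± 2.68% in P70 WT. Rps4l, a transcribed processed pseudogene and so outside the members, averaged 8.64 ± 3.36% of its X-linked parent Rps4x in E14 WT and 13.99 ± 1.798% in P70 WT, and these groups overlapped. Rps4x had 451, 428, 385, 479 and 518 CPM in E14 WT and 134, 134, 127, 156.6 and 137 in P70 WT, without overlap. Paralogs known from muscle and testis were near or at 0. Rpl3l, the muscle paralog of Rpl3, had at most 27 counts in a library and counts in 46 of 50. In E14 WT Rpl3l had at most 2 counts in a library, under the 3 counts taken as the floor. Its CPM was 0.0587, 0.0271, 0, 0.0541 and 0 in E14 WT and 0.437, 0.424, 0.416, 0.367 and 0.436 in P70 WT. Over library totals of all genes and without TMM scaling, the floor was 0.0683 to 0.0845 CPM. The testis paralog Rpl39l of Rpl39, a protein of the exit tunnel, had at most 8 counts, in 33 libraries. Rpl10l, the testis paralog of Rpl10, had 0 counts in every library, which allows up to that floor in each. Such floors cover counting error only.

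**Figure D3:**
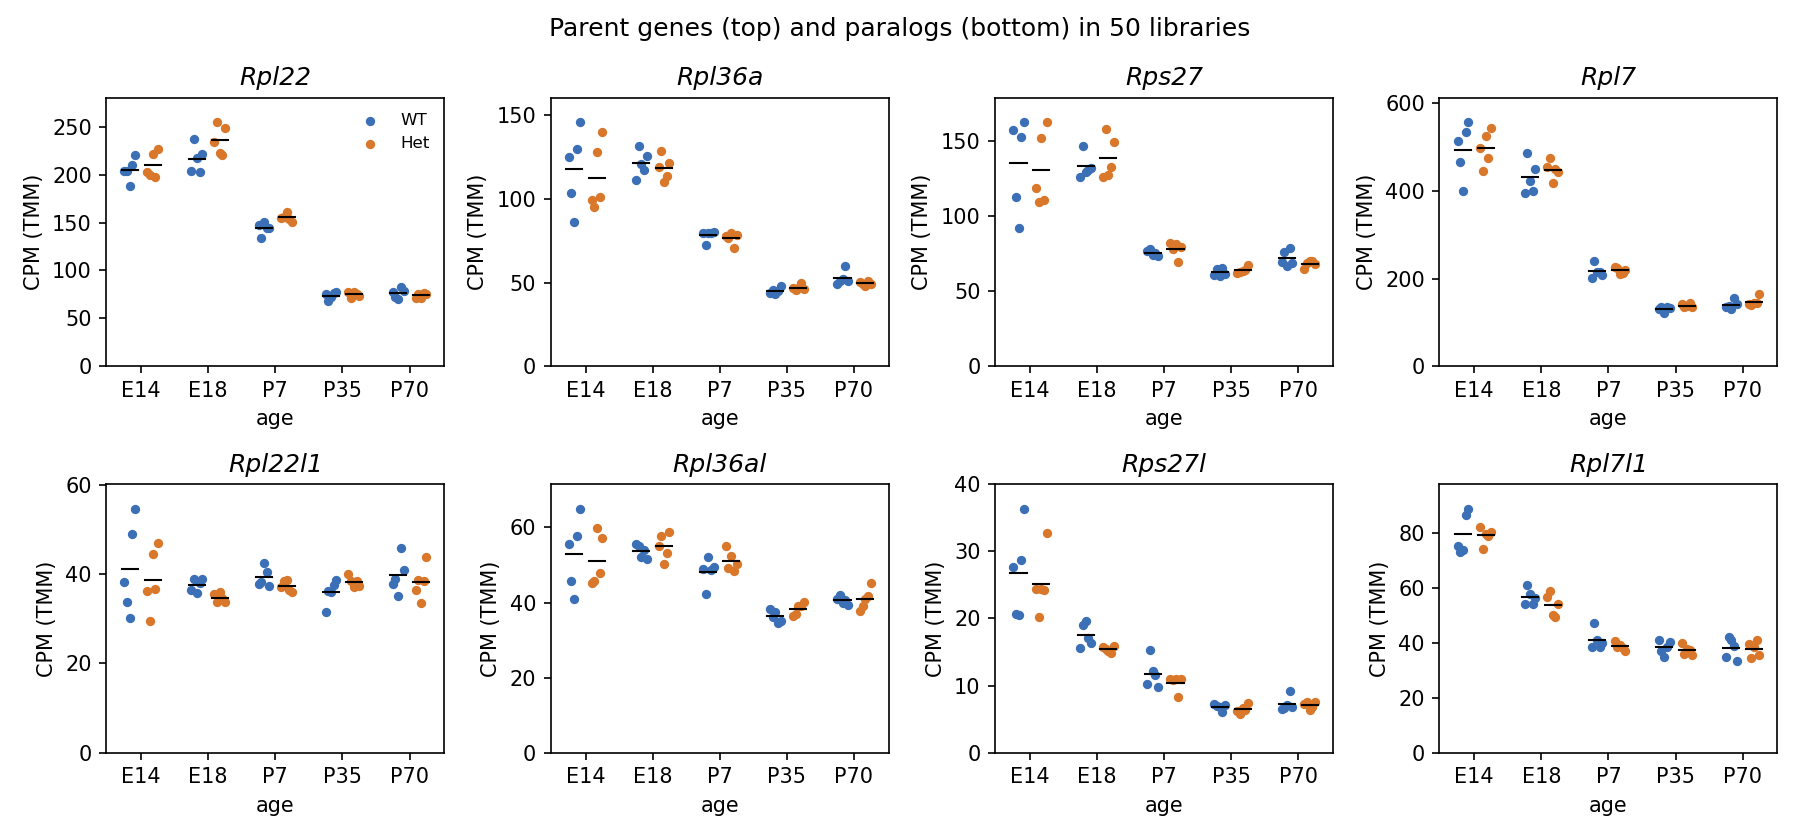
CPM after TMM scaling (vertical axis) of Rpl22 and Rpl22l1, Rpl36a and Rpl36al, Rps27 and Rps27l, and Rpl7 and Rpl7l1 in the 50 libraries by age; points are libraries, lines group means. Rpl22 drops from 188 to 220.3 CPM in E14 WT to 69.99 to 82.5 in P70 WT while Rpl22l1 keeps overlapping values.

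Differences between genotypes were small. With age as a covariate, the comparison that asks for an effect of Setd1a loss over all ages, edgeR called 1 of 80 members, Rpl3, against 4.43% of all tested genes. An unadjusted p under 0.05 was reached by 12 members, 15% of them against 14.5% of all genes. The fitted log2 fold change was above 0 in 73 of 80 members (91.2%; 50.9% of all genes), with a median of 0.03 against 0.00. Members moved together between mice, and the SD between mice of their mean deviation from the group was 0.101 on the log2 scale. The 80 members are thus not separate observations of a genotype effect. Rps27l had the lowest fitted value, -0.11, with 4 of 25 Setd1a+/- mice above the WT mean of their age. Medians were 0.03 in the large subunit, 0.04 in the small subunit and 0.04 in the stalk.

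Rpl3 (ENSMUSG00000060036, chr15:80077791-80091868) is a large-subunit protein near the peptidyl transferase centre. Its CPM at E14 was 532, 488, 456, 535 and 569.7 in WT and 537, 542, 529, 524 and 578 in Setd1a+/-. At E18 Rpl3 stood at 474, 526, 469, 464 and 505 in WT and 518, 550.2, 478, 512 and 499 in Setd1a+/-. At P7 it was 354, 359, 362, 361 and 355 in WT and 378, 377, 376, 362 and 371 in Setd1a+/-. Groups overlapped at E14 and E18, and at P7 by a single mouse of each group. At P35 Rpl3 was 292, 301, 281, 304 and 305 in WT and 314, 309, 320.2, 325 and 319.7 in Setd1a+/-, where all Setd1a+/- mice lay above all WT mice. At P70 it was 301, 296, 279, 335 and 322 in WT and 314, 299, 317, 317 and 375 in Setd1a+/-, with overlap. The Setd1a+/- mean was above the WT mean at all 5 ages, and 23 of 25 Setd1a+/- mice lay above the WT mean of their age. Rpl3 by genotype had a log2 fold change of 0.07 (edgeR, SE 0.0219, adjusted p 0.0339). The call ended with library size as the sole scaling (0.07, adjusted p 0.120). It ended as well without E18 Setd1a+/- replicate 2 (adjusted p 0.0545), P35 WT replicate 3 (0.0546), P70 WT replicate 3 (0.0545) or P70 Setd1a+/- replicate 5 (0.0538). Of the 150-base stretches of its coding transcript, 71.0% also occur in another annotated gene.

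The next 4 members by p did not pass the adjustment: the stalk scaffold Rplp0 (log2 fold change 0.07, edgeR adjusted p 0.0619), Rpsa (0.06, 0.105), Rpl4 of the exit tunnel (0.06, 0.141) and Rpl19, which bridges the subunits (0.06, 0.155). For these genes 21, 21, 20 and 21 of 25 Setd1a+/- mice lay above the WT mean of their age. Rplp0 had 979.6, 917, 983, 916 and 1034 CPM in E14 Setd1a+/-, 880.5, 938, 824, 859 and 877 in E18 Setd1a+/- and 506, 469, 493, 475 and 476 in P7 Setd1a+/-. In P35 Setd1a+/- Rplp0 had 179, 161, 173, 174 and 171 CPM and in P70 Setd1a+/- 169.8, 163.7, 176, 172 and 155. Set beside the WT values above, the genotypes overlapped at every age. The count of called members moved between 0 and 7. The share of all tested genes called under the same setting follows in brackets. The count was 5 (4.06%) without both libraries with Xist counts (Rpl3, Rplp0, Rpsa, Rpl4 and Rpl14, the last chosen after its values were seen), with a median over members of 0.05. It was 4 (5.04%) by DESeq2 (Rpl3, Rplp0, Rpsa and Rpl4), 1 (4.61%) by limma-voom, and 2 (Rpl3 and Rplp0) with size factors of DESeq2 in edgeR (4.23%), with a minimum of 1 CPM (4.74%) and with a minimum of 10 CPM (5.33%) in 5 libraries. Without the E14 libraries, left out after seeing how far they differed, the count was 7 (4.91%), adding Rpl19 and Rps15a, and the median was 0.04. With single libraries left out, 4.0 to 4.74% of all tested genes were called. The count of members was then 3 without E14 WT replicate 5 or P70 WT replicate 4, and 2 without E14 WT replicate 4, E14 Setd1a+/- replicate 2, E14 Setd1a+/- replicate 4, E18 WT replicate 2, E18 Setd1a+/- replicate 3 or P35 Setd1a+/- replicate 2. It was 0 without E18 Setd1a+/- replicate 2, P35 WT replicate 3 or P70 WT replicate 3, with library size alone as scaling (4.75% of all), and at an adjusted p under 0.01 (2.49%).

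**Figure D4:**
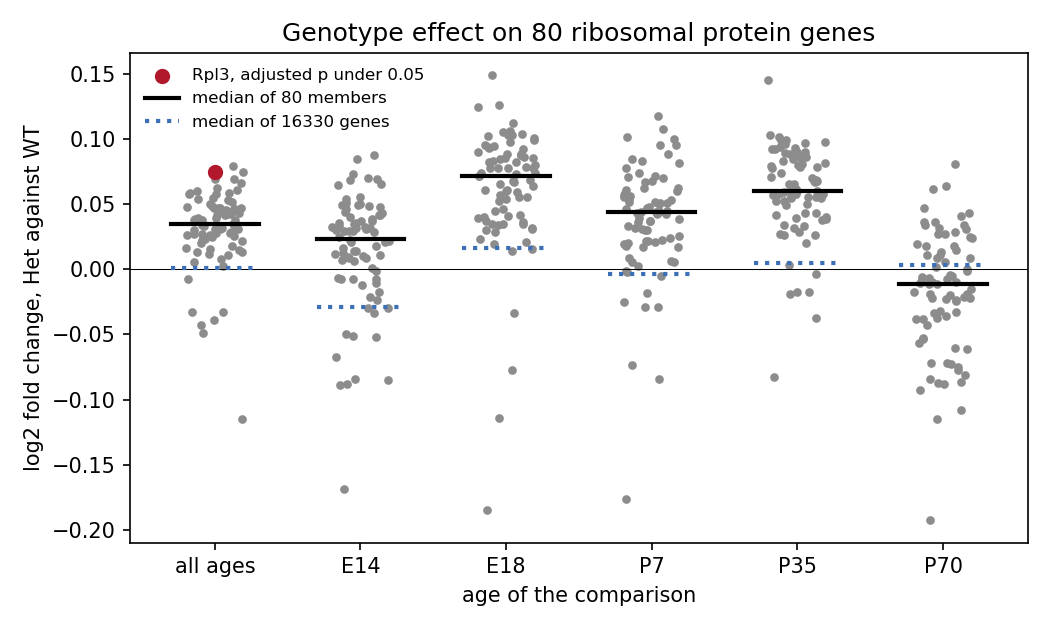
Log2 fold change of each member in Setd1a+/- against WT (vertical axis) over all ages and at each age; points are members, the black line their median, the blue dotted line the median of the 16330 tested genes and the red point Rpl3. Medians of members lie between -0.01 at P70 and 0.07 at E18.

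Within single ages edgeR called 0 members between genotypes. Of all tested genes it called 0.129% between E14 groups, 0.110% between E18 groups, 0.735% between P7 groups, 0% between P35 groups and 0.233% between P70 groups. Members with an unadjusted p under 0.05 numbered 0, 2, 1, 0 and 1 in that order, against 11.6, 11.4, 8.86, 3.37 and 6.55% of all tested genes, and DESeq2 and limma-voom called 0 at each age. Median log2 fold changes over members were 0.02, 0.07, 0.04, 0.06 and -0.01, against -0.03, 0.02, 0.00, 0.00 and 0.00 over all genes. Values lay above 0 in 58, 76, 70, 74 and 29 of the 80 members. Single libraries turned the direction of some of these medians. At E14 the median was -0.05 without E14 WT replicate 3 and 0.09 without E14 WT replicate 5, and at P70 it was 0.02 without P70 WT replicate 4. Without the libraries with Xist counts it was 0.08 at E14 and 0.10 at E18.

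The member with the smallest p at E14 was Rpl8, a neighbour of Rpl3 near the peptidyl transferase centre (0.08, edgeR unadjusted p 0.154, adjusted p 0.633). Rpl22 held that place at E18 and P7. It had 203.9, 237, 217, 202.4 and 221 CPM in E18 WT and 234, 254, 222, 220.2 and 249 in E18 Setd1a+/-. At P7 Rpl22 had 148, 134, 150.3, 145 and 144 CPM in WT and 155, 156, 161, 154 and 151 in Setd1a+/-. E18 values overlapped, and at P7 all 5 Setd1a+/- mice lay above all 5 WT mice, yet neither difference passed the adjustment (0.13 with adjusted p 0.292 and 0.11 with adjusted p 0.482, both edgeR). Rpl12, at the base of the stalk, came first at P35 (0.15, edgeR unadjusted p 0.0520, adjusted p 1). The zinc-binding Rps29 came first at P70 with 114, 136, 104, 126 and 118 CPM in WT and 103, 101, 109, 112 and 98.0 in Setd1a+/-. These groups overlapped by the WT mouse of lowest value (-0.19, edgeR adjusted p 0.471). The interaction of age and genotype, which asks whether the effect of genotype differs between ages, was called for 0 members (0% of all tested genes) by edgeR, with 0 at an unadjusted p under 0.05 (6.72% of all genes) and 0 by DESeq2 and limma-voom. Its smallest unadjusted p values among members were those of Rpl22 (0.138) and Rps29 (0.142).

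Genes of the same pathway outside the members also fell with age, in part. Of the 4 ribosomal proteins that the symbol rule misses, all were lower at P70 than E14 in WT (42.9% of all tested genes were, and 42.8% were higher), with a median log2 fold change of -0.92. Among these, Rack1, the scaffold on the small-subunit head, went from 481 to 599 CPM in E14 WT to 125 to 141 in P70 WT (-2.07, edgeR adjusted p 6.41e-34). Rps3a1 of the small subunit had a log2 fold change of -1.12 (edgeR adjusted p 7.05e-21). Of 19 other TOP messages, all 19 were lower (median -1.29). Hnrnpa1, an RNA-binding protein of the nucleus, had 1413 to 1489 CPM in E14 WT and 212 to 247 in P70 WT (-2.65, edgeR adjusted p 2.85e-36). The lists share genes: 4 of the TOP messages are these ribosomal proteins outside the symbol rule, and several are translation factors.

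Of 40 translation factors, 33 were lower and 5 higher (median -0.73), beside the 42.9% lower and 42.8% higher of all tested genes. The elongation factor Eef1a1 had 4519, 4271, 3801, 4372 and 4606 CPM in E14 WT and 1268, 1298, 1156, 1444 and 1319 in P70 WT. Its neuronal and muscle counterpart Eef1a2 had 94.9, 114, 69.4, 65.2 and 44.8 CPM in E14 WT and 1155, 1064, 1142, 1071 and 958 in P70 WT. The values did not overlap for either gene, and the pair moved in opposite directions (log2 fold changes -1.73 and 3.79, edgeR adjusted p 1.26e-31 and 5.99e-28). The translocation factor Eef2 changed by -1.21, the helicase Eif4a1 by -1.89 and the initiation factor Eif4g2 by -1.48 on the log2 scale. Of 66 ribosome biogenesis genes, 56 were lower and 6 higher (median -0.80). They included Ncl, or nucleolin (-0.95), Npm1, or nucleophosmin (-1.99), the helicase Ddx21 (-2.23), the RNA polymerase I factor Ubtf (-0.44) and Rrp1, which was higher (0.44). Of 17 genes that control ribosomal protein messages, 12 were lower and 3 higher (median -0.32). The largest falls there were those of the Myc relatives Mycl (-3.31) and Mycn (-3.30), and Eif4ebp2, a repressor of cap binding, was -2.26. The kinase Akt1 was -1.23 and Tsc2, a brake on mTOR, -0.31.

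By genotype with age as covariate, 2 of the 66 biogenesis genes were higher in Setd1a+/- (4.43% of all tested genes were called, in either direction), Pes1 (0.07, edgeR adjusted p 0.0195) and Nop2 (0.09, edgeR adjusted p 0.0376), both chosen after their values were seen and both needed for the large subunit. Both were also called by DESeq2 and limma-voom, and without P7 WT replicate 2, left out after seeing its marker sums, only Pes1 was called. In the other 4 lists edgeR called 0 genes by genotype, with 2, 4, 5 and 0 at an unadjusted p under 0.05 (14.5% of all genes) among ribosomal proteins outside the symbol rule, other TOP messages, translation factors and control genes. In these 4 lists DESeq2 called 1 gene, a translation factor, and limma-voom called 0. Medians by genotype were 0.05 for the ribosomal proteins outside the symbol rule, 0.03 for other TOP messages, 0.02 for translation factors, 0.02 for biogenesis and 0.01 for control genes.

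**Figure D5:**
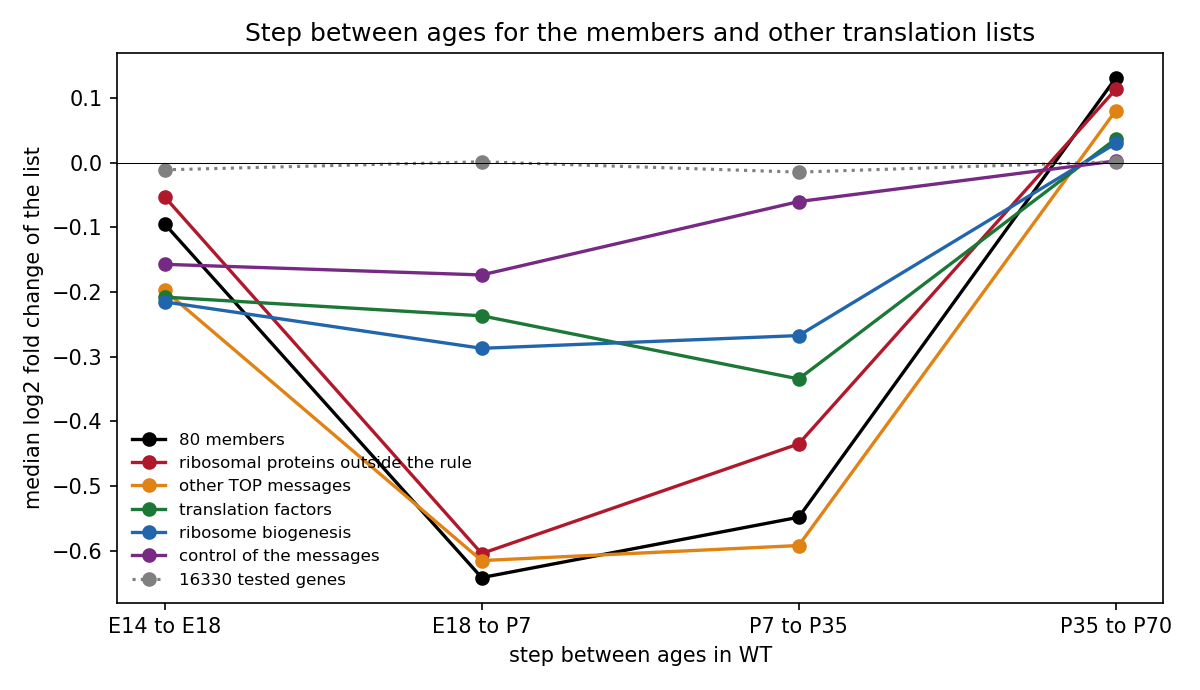
Median log2 fold change in WT (vertical axis) at each step of age for the 80 members and 5 other lists, with the median of the 16330 tested genes. Members lie lowest from E18 to P7 at -0.64, and from P35 to P70 the members lie at 0.13.

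Cell type markers moved over the same ages as the members. From E14 to P70 in WT, where 42.9% of all tested genes were lower and 42.8% higher, all 12 markers of progenitors and cycling cells were lower. They summed to 2399, 2094, 2536, 2731 and 3235 CPM in E14 WT, led by Vim, to 652, 1065, 564, 625 and 636 in P7 WT, led by Fabp7, and to 138, 147, 121, 178 and 138 in P70 WT, led by Sox2. Every P70 library lay below every P7 library, and every P7 library below every E14 library. Of 10 neuronal markers 8 were higher and 2 lower, with sums of 3634, 3789.8, 3363, 3294 and 2803 CPM in E14 WT, led by Tubb3, and 9499, 9065, 9992, 9507 and 9147 in P70 WT, led by Camk2a. All 8 astrocyte markers were higher, from 324, 345, 391, 407 and 427 CPM to 3898, 3746, 3958, 3606 and 3859.7, led by Slc1a3 and then Slc1a2. All 8 oligodendrocyte markers were higher, from 98.8, 95.4, 103, 99.7 and 110.2 CPM, led by Cnp, to 3914, 3996, 3168, 3872 and 3937, led by Mbp, and Opalin was at 0 in all E18 WT libraries. Microglial markers were higher in 8 of 8, oligodendrocyte precursor markers in 5 of 6, with 0 lower, and striatal markers in 6 of 6. Erythroid markers were lower in 8 of 8, from 307 to 1349 CPM to 61.4 to 181, led by Hbb-bs, with Hba-x at 0 in P35 WT and P70 WT. Endothelial markers were higher in 3 and lower in 1 of 6, choroid plexus markers higher in 1 and lower in 4 of 6, and meningeal markers lower in 1 of 5. By genotype with age as covariate edgeR called 0 of 83 markers, with 4 at an unadjusted p under 0.05 (14.5% of all genes), and DESeq2 and limma-voom called 1 each. At P7 edgeR called 3 of 8 oligodendrocyte markers (median log2 fold change -1.14) and 1 of 6 choroid plexus markers (-0.98) lower in Setd1a+/-, against 0.735% of all tested genes. DESeq2 called 2 and 1 of these lists, and limma-voom 0 and 0. Without P7 WT replicate 2, the library with high sums of both, left out after seeing those sums, edgeR called 0 of either list (medians -0.12 and 0.10), with 2 and 0 at an unadjusted p under 0.05. At E14, E18, P35 and P70 edgeR called 0 markers, with 15, 12, 0 and 1 of the 83 at an unadjusted p under 0.05, against 11.6, 11.4, 3.37 and 6.55% of all tested genes. DESeq2 called 3 at E18 and 0 at the other 3 ages, and limma-voom 0 at all of them. Without P7 WT replicate 2, edgeR called 2 markers lower at E18. By genotype, the median log2 fold change of meningeal markers was 1.78 at E14 and -0.56 at E18, and of endothelial markers 0.76 and -0.60. Other lists had medians of -0.16 to 0.54 at E14. At E18 choroid plexus markers stood at -1.01, erythroid markers at -0.55 and other lists at -0.16 to 0.29. The part of cell type markers in the result was not tested.

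Ribosomal proteins have many processed pseudogenes, and fragments that map to several places were not counted, so levels of some members can be underestimates. Of the 80 members, 68 had at least 1 stretch of 150 bases of their coding transcript that recurs in another annotated gene, and 14 had at least 50% of stretches shared. The median was 18.3%. The other gene can overlap the member at the same locus, and a stretch shared only in that way need not map to several places. All shared stretches of Rpl13a (52.7%), chosen after its values were seen, occur in Gm45713, which overlaps its exons. These shares are thus not a direct measure of lost fragments. Rpl10 (83.3%), Rpl36a (81.1%), Rps27 (51.1%) and Rps2 (44.8%) were among the genes named above with larger shares, and Rplp0 (7.36%), Rplp1 (12.0%), Rpsa (18.5%), Rpl36al (18.2%) and Rpl22l1 (20.8%) among those with smaller shares. Rpl22, Rpl7l1, Rps27l, Rpl39 and Rps21 had none shared. The median log2 fold change from E14 to P70 in WT was -1.24 over the 12 members with no shared stretch and -1.17 over the 14 with at least 50%. Counting ignored the strand and gave a fragment in exons of several genes to each of them, and 39 members overlap exons of another gene, 2 of them over at least 50% of their exonic bases (Rpl35, 66.2%, and Rpl23a, 62.3%, both chosen after their values were seen). Rpl36al shares 24.5% of its exonic bases with Gm49383.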

How the data were processed

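RNA was measured by poly-A sequencing in 50 libraries of mouse frontal cortex, dissected in embryos as frontal brain regions. The authors trimmed reads with Trimmomatic, aligned them to GRCm38 with STAR and deposited raw fragment counts per gene from featureCounts 1.4.6-p2, without strand and without multi-mapping fragments. Each of the 50 libraries held 35507165 to 43907318 counts, and intervals and floors drawn from counts cover counting error only. Members, gene lists and named genes were chosen with earlier results of these data known.

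Counts of 55487 genes, 55141 of them in GENCODE vM21, were read in Python 3.11.15 with pandas 2.3.3 and drawn with matplotlib 3.10.9. In R 4.3.3, edgeR 4.0.16 filtered 21897 protein-coding genes with filterByExpr at a minimum count of 10, leaving 16330, scaled libraries by TMM and fitted quasi-likelihood models, with a prior count of 2 for log2 CPM. RPKM used exonic length. The comparisons were genotype with age as covariate, genotype at each age, the interaction of age and genotype as a joint test of 4 terms, and each step of age and E14 to P70 within a genotype. The threshold was an adjusted p of 0.05 by Benjamini-Hochberg over all tested genes. The fits were tested on simulated data. Alternatives were size factors of DESeq2 1.42.0, library size alone, DESeq2, limma-voom (limma 3.58.1), minimums of 1 and 10 CPM in 5 libraries, no filter, all annotated genes, a replicate block, RNA integrity as a covariate, libraries with Xist counts left out, each library left out in turn, an adjusted p of 0.01, and, chosen after seeing the data, E14 left out.

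Named genes were Setd1a, 8 parent and paralog pairs, the stalk proteins, Rpsa, Rps27a, the 5 members of highest and of lowest mean RPKM, and the 5 called members with the largest rise and fall from E14 to P70. They also took in the members of smallest p by genotype (5 over all ages, 1 at each age, 2 for the interaction), the 3 candidates nearest the level minimum on each side, and up to 5 genes of each other list. Other lists were ribosomal proteins outside the symbol rule, translation factors, ribosome biogenesis, control of ribosomal protein messages, other TOP messages, and markers of 11 cell types or tissues. Results for the steps of age in Setd1a+/- were not summarised under the alternatives. No library was left out of the results unless stated.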

Additional observations from a re-analysis of the deposited data

Results flagged for a closer look

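Some values stood far from the others of their group, judged by the gap between the most extreme value and its neighbour over the range of the group. This was looked at in 170 groups of 5 libraries, for the share of counts and 16 genes, and 13 groups (7.65%) had such a value, where chance flags about 1 in 20 groups. The genes share libraries, so these groups are not independent.

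E18 replicate 2 of both genotypes was high for Rplp1, at 482 CPM in WT (median of the group 463) and 523 in Setd1a+/- (493). E18 Setd1a+/- replicate 2 was also high for Rpsa at 890.1 CPM (817), and E18 WT replicate 2, which held Xist counts, for Rps27 at 147 CPM (131.03). P7 WT replicate 2, the library with high oligodendrocyte and choroid plexus markers, had a share of counts on members of 1.67% (1.56%), Rps27a at 155 CPM (138) and Rpl36a at 72.5 CPM (79.7). P7 Setd1a+/- replicate 4 was low for Rps27l at 8.27 CPM (10.98). P70 WT replicate 4 was high for Rplp0 at 185 CPM (159.3), for Rpl36a at 59.9 CPM (51.0) and for Rps27l at 9.17 CPM (6.87). P70 Setd1a+/- replicate 5 was high for Rpl3 at 375 CPM (317) and for Rpl7 at 165 CPM (144).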

How the results depend on the processing

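The counts from E18 to P7, from P7 to P35 and from E14 to P70 in WT moved little with single libraries left out, unlike those from E14 to E18 and from P35 to P70 given below. Lower members numbered 75 to 76 from E18 to P7, 73 to 74 from P7 to P35 and 78 to 79 from E14 to P70. With library size only, the median log2 fold change of members from E14 to P70 in wild-type was -1.29, from -1.17. That of all tested genes moved to -0.11 under this scaling, and single libraries moved the member median between -1.26 and -1.14.

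Members called by genotype with age as covariate, 1 by default, numbered 2 with size factors of DESeq2, 0 with library size only, 4 by DESeq2, 2 with a minimum of 1 CPM and 2 with a minimum of 10 CPM. They numbered 5 without the libraries with Xist counts, 0 at an adjusted p under 0.01, 7 with E14 left out, which was chosen after seeing the data, and 0 to 3 with single libraries left out. Their median stayed between 0.02 and 0.05 with single libraries left out. From E14 to E18, 1 member was higher at an adjusted p under 0.01 (26.9% of all tested genes), and 1 to 2 with single libraries left out. With library size only 13 were lower (30.2% of all), and 14 to 42 with single libraries left out. From P35 to P70, 1 was higher with library size only (0.423% of all), 4 by DESeq2 (0.839%) and 1 with RNA integrity as a covariate (0.282%). At an adjusted p under 0.01 the count was 0 (0.116% of all), and with single libraries left out 0 to 3. A stricter threshold by itself lowers counts, and for the other settings the cause was not tested.

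Fitting a replicate block of same-numbered mice gave 2 members by genotype (Rpl3 and Rplp0) and a member median of 0.04. Without it 1 member was called. Of all tested genes the block called 4.81% by genotype, where 4.43% were called without it. From P35 to P70 the block again gave 2 higher members (0.539% of all tested genes) and from E14 to P70 again 78 lower. Same numbers had no clear bearing on likeness: among 25 pairs of libraries the correlation of residuals ran from -0.204 to 0.460 with a median of 0.064, and 7 pairs correlated best with their own number.

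Over the main results, 215 values under the other alternatives were counted as kept and 16 as moved, and with single libraries left out 979 and 21. For single genes and descriptive values these numbers were 1630 kept, 13 moved, 19 newly past and 8 no longer past the threshold, and 6876, 0, 18 and 6 with single libraries left out. A median counted as kept if it shifted by less than 0.101 log2, the SD between mice of the mean member deviation, even where its sign turned. Counts were kept within a set factor of the default, and single genes mainly by whether they passed the threshold. Values counted as kept can thus differ in direction or size. The 3 oligodendrocyte and 1 choroid plexus marker called by genotype at P7 were 0 and 0 by edgeR with P7 WT replicate 2 left out, a test added after seeing its marker sums, with 2 and 0 at an unadjusted p under 0.05. Depth limits the paralogs Rpl3l, Rpl39l and Rpl10l, which held at most 27 counts in a library.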
